A study of Homo sapiens with 12 samples.

Results

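Genes for 9 surface proteins that tumour cells present to immune cells were followed in ES-2, an established cell line derived from an ovarian cancer, after knockdown of each of the 3 IGF2BP mRNA-binding proteins. The genes were VSIR (listed in the deposited table under its older name C10orf54), CD70, CD274, CD276, PVR, NT5E, CD47, VCAM1 and ICAM1. They were found by name among 57865 features, and all 9 passed the filter on low values that left 13782 genes for testing. The list was selected on their FPM and fold changes in these same 12 libraries, so the test results below, direct comparisons between knockdowns included, describe the genes and are not independent evidence that they moved.

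The groups were siI1 (siRNA pools targeting IGF2BP1), siI2 (targeting IGF2BP2), siI3 (targeting IGF2BP3) and siC (control siRNAs), with 3 libraries in each of the 4. Libraries were made from total RNA after ribosomal depletion, with random hexamer priming. A single cell line stands behind every value, and the labels do not state that replicates were separate cultures. P-values therefore measure the spread between these libraries, which may be technical. Neither the label nor the header gives the time from transfection to extraction.

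Immune checkpoint ligands are membrane proteins that bind receptors on T cells or macrophages and restrain or adjust their activity. CD274 (PD-L1) engages PD-1, CD276 (B7-H3) and VSIR (VISTA) belong to the same B7 family, CD70 is a TNF superfamily ligand that binds CD27, and PVR (CD155) binds TIGIT, CD96 and CD226. NT5E (CD73) converts extracellular AMP to adenosine, which dampens T cells, and CD47 signals through SIRPA to hold back phagocytosis. VCAM1 and ICAM1 are the adhesion ligands of the leukocyte integrins VLA-4 and LFA-1. In many cell types cytokines acting through NF-kB, STAT and IRF factors induce VCAM1, ICAM1 and CD274.

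The promoters of those inducible genes are shown because the data bear on their transcripts. These promoters differ in which of the motif letters below they hold, and those letters were picked with the promoters already read. Sequences are from RefSeq on GRCh38.p14, 5′ to 3′ on the strand of the gene and ending at the base before the annotated start, and capitals mark the motif matches described next. The windows are VCAM1 at chr1:100719592-100719741 (+), ICAM1 at chr19:10270970-10271119 (+) and CD274 at chr9:5450292-5450541 (+).
VCAM1: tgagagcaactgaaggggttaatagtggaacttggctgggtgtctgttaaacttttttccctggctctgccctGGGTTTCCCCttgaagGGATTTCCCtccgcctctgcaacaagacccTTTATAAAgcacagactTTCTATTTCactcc
ICAM1: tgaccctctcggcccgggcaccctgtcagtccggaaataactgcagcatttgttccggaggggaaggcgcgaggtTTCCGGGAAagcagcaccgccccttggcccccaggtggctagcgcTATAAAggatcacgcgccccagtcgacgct
CD274: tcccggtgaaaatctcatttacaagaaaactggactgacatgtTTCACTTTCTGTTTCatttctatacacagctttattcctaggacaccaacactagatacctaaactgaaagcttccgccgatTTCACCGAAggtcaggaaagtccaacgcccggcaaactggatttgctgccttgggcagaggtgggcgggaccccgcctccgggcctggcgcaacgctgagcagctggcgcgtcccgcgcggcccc

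Motifs were searched on both strands of the 250 bases before the start, and were picked after these promoters had been read. The NF-kB type letters GGNTTNCCC occurred in 4.505% of all 35116 RefSeq windows, the STAT type letters TTCNNNGAA in 6.57%, the interferon response type letters GAAANNGAA in 6.88% and the TATA box TATAAA in 10.7%. VCAM1 held overlapping NF-kB type matches 77 to 69 and 76 to 68 bases before its start and another at 61 to 53, an interferon response type match at 14 to 6, and TATA boxes at 205, outside the stretch printed, and at 31 and 29, which overlap on opposite strands. ICAM1 held a STAT type match at 75 to 67 and a TATA box at 30 to 25. CD274 held a STAT type match at 125 to 117 and a pair of overlapping interferon response type matches at 207 to 199 and 201 to 193. CD276 had an NF-kB type match at 222 to 214, and the windows of VSIR, PVR, NT5E and CD47 held none of the 4. A match is a string of letters, not a shown binding site. A window without a match may hold a site with other letters, so differences between promoters follow the letters picked. RefSeq entries were found for 8 of the 9 genes.

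FPM, in which the table gives levels, is a count of fragments scaled to library depth, and differences are log2 fold changes of FPM + 1 from limma, which understate the change of genes with low values. Summed FPM ran from 800026 in siI2 replicate 3 to 1219060 in siC replicate 2, so counted reads alone did not set the scale. The sums were 901706 and 881490 in siC replicates 1 and 3. The libraries held 3299360 to 11304060 reads, and 3 reads were worth 0.324 to 0.727 FPM. Each knockdown lowered its own target: IGF2BP1 averaged 11.1 ± 0.54 FPM in siI1 and 43.9 ± 4.52 in siC, IGF2BP2 13.4 ± 5.10 in siI2 and 80.0 ± 4.72 in siC, and IGF2BP3 4.52 ± 1.76 in siI3 and 23.5 ± 5.18 in siC (SD, n = 3 each). IGF2BP3 also averaged 15.2 ± 2.07 FPM in siI1 and 14.9 ± 3.60 in siI2. In siI1 IGF2BP3 was not called (log2 -0.58, limma adjusted p = 0.190). Its log2 difference there was -0.07 after the correction for GC content and transcript length described below. Of 10 leukocyte markers, 8 had means at or below 0.384 FPM in every group, among them PTPRC and CD3E. The myeloid marker CSF1R averaged 2.45 FPM in siI1, 0.835 in siI2 and 1.66 in siI3, beside 1.71 in siC. The myeloid marker CD14, under the filter and not tested, averaged 1.06 FPM in siI1, 1.11 in siI2 and 0.266 in siI3, beside 0.194 in siC, where it rested on 1 to 2 reads a library. The sum over the 10 was 1.02 to 5.67 FPM in knockdown libraries and 1.402 to 3.79 in siC libraries. As bulk libraries, these cannot tell fewer cells carrying a transcript from less of it per cell.

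The siC libraries were not alike in how expression depended on GC content. Against the mean of all libraries, siC replicates 1 and 3 had slopes of -0.46 and -0.43 log2 units per 10 percentage points of GC, whereas siC replicate 2 had a slope of 0.03 and the 9 knockdown libraries lay between -0.09 and 0.21. The transcripts studied spanned this range, with VCAM1 at 34.95% GC, CD47 at 38.4%, CD274 at 40.9%, NT5E at 45.2%, PVR at 56.5%, ICAM1 at 56.9%, VSIR at 59.2%, CD70 at 60.0% and CD276 at 61.0%. The tests were therefore also run after a loess correction of every library for GC content and transcript length, possible for 13361 genes.

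**Figure D1:**
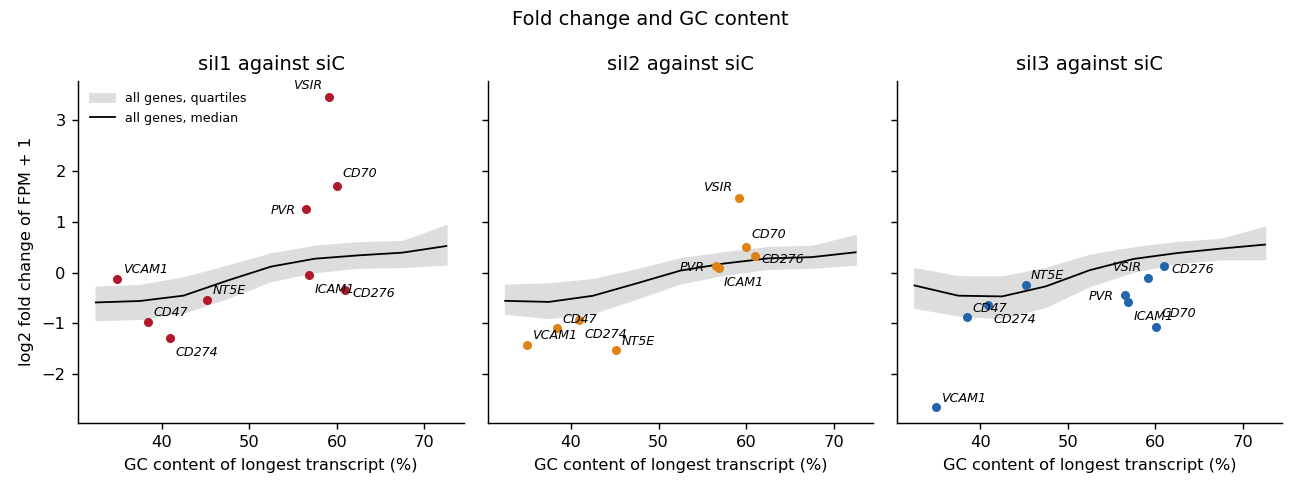
Log2 fold change of FPM + 1 against the GC content (%) of each gene's longest transcript, in a panel for each knockdown against siC; the line and grey band are the median and quartiles of all genes in GC bins and the points are the 9 genes. All-gene medians climb with GC in all 3 panels, and many of the 9 genes lie outside the quartile band, on either side, with VSIR in siI1 farthest above it and VCAM1 in siI3 farthest below.

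VSIR, CD70 and PVR rose after IGF2BP1 knockdown and CD274 fell. That was 4 of 9 genes past the threshold of an adjusted p of 0.05, where 8.18% of all genes tested passed it, 3.77% upward and 4.42% downward. NT5E fell after IGF2BP2 knockdown, 1 of 9, where 1.51% of all genes passed and 0.936% fell. CD70 and VCAM1 fell after IGF2BP3 knockdown, 2 of 9, where 10.6% passed and 8.29% fell. After the GC and length correction 4, 1 and 3 of the 9 were called in siI1, siI2 and siI3, where 7.01%, 1.44% and 6.80% of all genes were. The corrected calls in siI1 took in CD276 and lost CD274, and those in siI3 added PVR. On the deposited scale CD276, CD47 and ICAM1 passed the threshold in no knockdown. The median log2 fold change of the 9 was -0.12 in siI1, 0.08 in siI2 and -0.57 in siI3, beside -0.05, -0.09 and -0.05 over all genes tested. The 3 comparisons share the siC libraries.

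**Figure D2:**
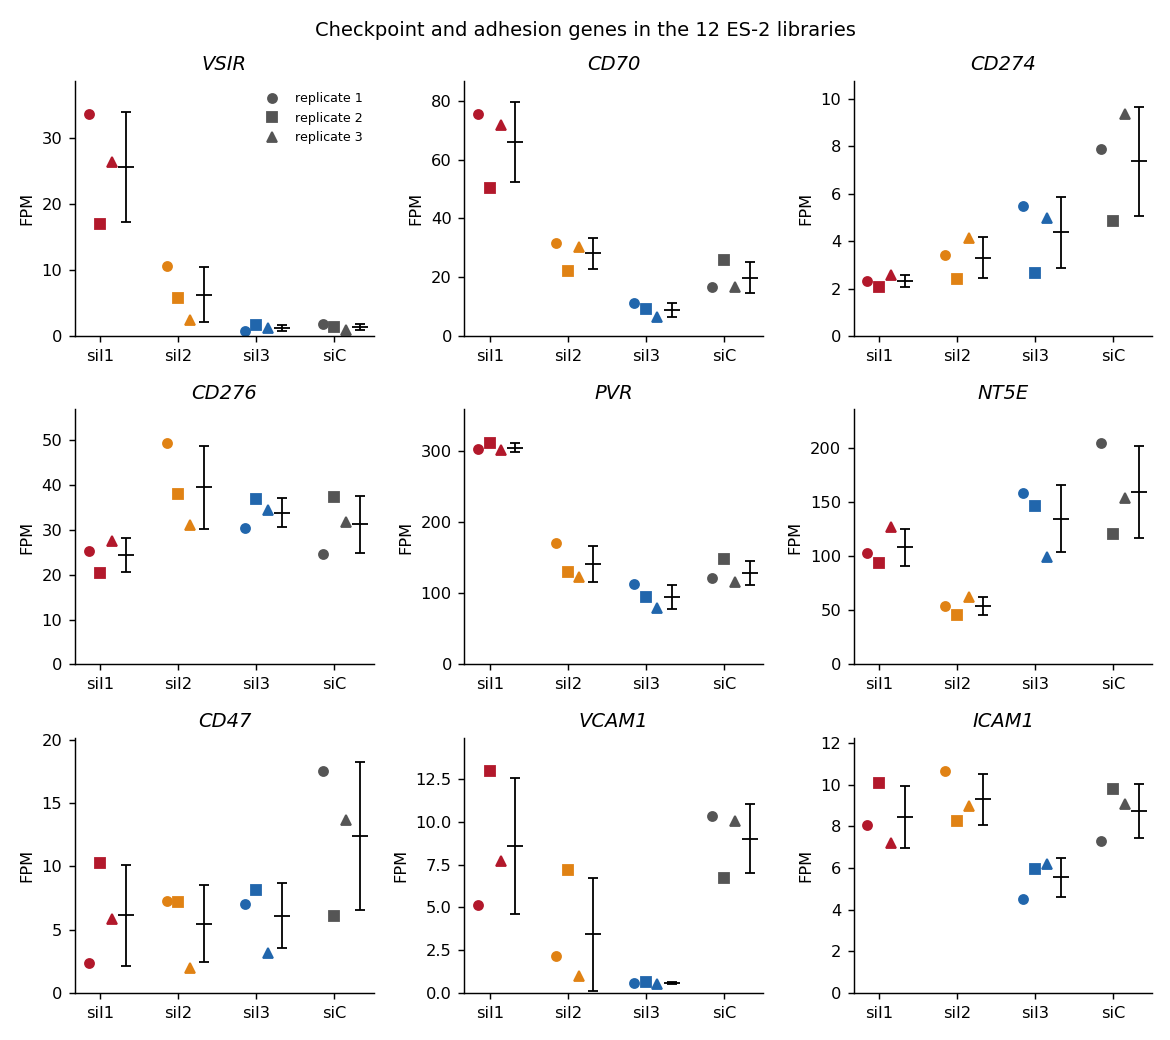
FPM of each of the 9 genes in the 12 libraries, siI1, siI2, siI3 and siC from left to right; symbols are libraries and the black mark with bars is the mean and SD of 3. VSIR, CD70 and PVR are highest in all 3 siI1 libraries, NT5E is lowest in the 3 siI2 libraries and VCAM1 lies below 0.64 FPM in every siI3 library.

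VSIR, a B7 family checkpoint protein best known from myeloid cells and T cells, had 33.5, 16.95 and 26.3 FPM in siI1, against 1.74, 1.402 and 0.947 FPM in siC. Every siI1 library lay far above every siC library. The mean was 25.6 ± 8.32 FPM in siI1 and 1.36 ± 0.397 in siC (SD, n = 3 each), 18.8-fold higher, with a log2 fold change of 3.46 (SE 0.39, limma adjusted p = 8.19e-05). The siC values rest on 7 to 15 reads a library. The summed reads, 476 in siI1 and 35 in siC, gave an 18.5-fold ratio after depth scaling, with a 95% exact interval of 13.2 to 27.0 that covers counting error only. After the GC and length correction the log2 difference was 3.09 (limma adjusted p = 0.000156). With siC replicate 2 as the lone control it was 3.42 (limma adjusted p = 0.0237), and VSIR was the 1 gene of the 9 still called in siI1, where 0.290% of all genes were.

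VSIR in siI2 had 10.6, 5.70 and 2.42 FPM, again with no overlap with siC. The mean of 6.26 ± 4.14 FPM was 4.59-fold that of siC, but the log2 difference of 1.46 (SE 0.39) did not pass (limma adjusted p = 0.0673). edgeR on the reads recovered from the table called it (log2 2.27, adjusted p = 0.0301), in a comparison where it called 1.34% of all genes, as did the authors' deposited table with an FDR of 0.0239. In siI3 VSIR had 0.702, 1.65 and 1.24 FPM, within the siC range apart from the lowest library (log2 -0.11, limma adjusted p = 0.866). The VSIR locus lies inside CDH23 on the opposite strand with no shared exon bases, and CDH23 averaged 1.73 to 3.81 FPM over the groups. Whether counting used strand is not given, so reads from either strand cannot be told apart.

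CD70 had 75.5, 50.5 and 72.0 FPM in siI1, against 16.8, 26.0 and 16.6 FPM in siC. The lowest siI1 library exceeded the highest siC library. Its mean was 66.0 ± 13.5 FPM in siI1 and 19.8 ± 5.35 in siC, a log2 fold change of 1.69 (SE 0.25, limma adjusted p = 0.000915) and of 1.43 after the correction. CD70 moved the other way after IGF2BP3 knockdown, with 11.4, 9.02 and 6.56 FPM in siI3, all under the lowest siC library. The siI3 mean of 8.98 ± 2.40 FPM was 45.3% of siC (log2 -1.06, SE 0.25, limma adjusted p = 0.0221; -1.27 and 0.00149 after the correction). This call was lost without siC replicate 1 (limma adjusted p = 0.0729), siC replicate 3 (0.0668) or siI3 replicate 2 (0.0791). In siI2 CD70 had 31.7, 22.2 and 30.3 FPM, overlapping siC (log2 0.50, limma adjusted p = 0.252).

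PVR, a nectin-like adhesion protein read by T cells and NK cells, had 302.3, 311.5 and 300.7 FPM in siI1, against 120.9, 147.9 and 116.3 FPM in siC. The siI1 libraries were tightly grouped above all siC libraries. The mean was 304.8 ± 5.84 FPM in siI1 and 128.4 ± 17.05 in siC, 2.38-fold higher (log2 1.25, SE 0.19, limma adjusted p = 0.00100; 0.98 after the correction). PVR shares 121 exon bases, 3.44% of its exons, with CEACAM19 on the same strand, which averaged 9.36 FPM in siI1 and 1.90 in siC. PVR had 170.6, 129.7 and 122.9 FPM in siI2 (log2 0.13). It had 112.5, 94.6 and 78.9 FPM in siI3, all under the lowest siC library, and there the log2 difference was -0.43 (limma adjusted p = 0.141) on the deposited scale and -0.64 (0.01003) after the correction.

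With siC replicate 2 as the lone control, the log2 difference in siI1 was 1.29 for CD70 and 1.04 for PVR. The part that the GC trend of siC replicates 1 and 3 has in these results was not tested beyond these values.

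CD274 (PD-L1) was among the lower-level genes, with 2.33, 2.08 and 2.56 FPM in siI1, against 7.88, 4.85 and 9.34 FPM in siC. Each siI1 value came from 13 to 15 reads, and none reached the lowest siC value. The mean of 2.32 ± 0.243 FPM in siI1 was 31.6% of the 7.36 ± 2.29 in siC (log2 -1.29, SE 0.31, limma adjusted p = 0.0207). The call was less firm than those above: after the correction the log2 difference was -0.79 (limma adjusted p = 0.132), the authors' deposited table gave an FDR of 0.0846, and 1 of 6 fits that each left out a library kept it, that without siC replicate 2 (adjusted p over the 6 fits 0.00689 to 0.122). CD274 had 3.41, 2.39 and 4.12 FPM in siI2, also all below siC (log2 -0.94, limma adjusted p = 0.111). In siI3 it had 5.47, 2.67 and 4.96 FPM, overlapping siC (log2 -0.64, limma adjusted p = 0.179).

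CD276 (B7-H3), a B7 family protein common on solid tumours, had 25.3, 20.3 and 27.5 FPM in siI1, 49.4, 38.0 and 31.0 in siI2 and 30.3, 36.8 and 34.4 in siI3, against 24.6, 37.2 and 31.8 FPM in siC. All 3 knockdowns overlapped siC. Its log2 differences were -0.33 in siI1 (limma adjusted p = 0.331), 0.33 in siI2 (0.391) and 0.13 in siI3 (0.720). After the GC and length correction, CD276 in siI1 was called at -0.70 (limma adjusted p = 0.0360).

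NT5E had 54.3, 45.8 and 62.6 FPM in siI2, against 204.9, 120.6 and 153.9 FPM in siC. The highest siI2 library lay well under the lowest siC library. The mean was 54.2 ± 8.40 FPM in siI2 and 159.8 ± 42.5 in siC, a log2 fold change of -1.52 (SE 0.23, limma adjusted p = 0.00435), and -1.18 after the correction (0.0215). It was called in all 6 fits that each left out a library (limma adjusted p 0.00425 to 0.0416). With siC replicate 2 as the lone control the log2 difference was -1.15. NT5E had 102.8, 94.2 and 127.4 FPM in siI1 (log2 -0.54, limma adjusted p = 0.144) and 158.3, 146.1 and 99.6 FPM in siI3 (log2 -0.24, 0.497), both overlapping siC.

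CD47, the phagocytosis-inhibiting ligand, had 2.33, 10.2 and 5.81 FPM in siI1, 7.24, 7.17 and 1.94 in siI2 and 7.02, 8.13 and 3.19 in siI3, against 17.5, 6.04 and 13.7 FPM in siC. Libraries of one group differed by up to several fold, and siC replicate 2 lay among the knockdown values. The log2 differences of -0.97, -1.09 and -0.88 did not pass (limma adjusted p = 0.216, 0.205 and 0.240). After the correction they were -0.42, -0.54 and -0.40.

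VCAM1 had its lowest level after IGF2BP3 knockdown. It had 0.561, 0.635 and 0.532 FPM in siI3, from 4, 5 and 3 reads, against 10.3, 6.69 and 10.0 FPM in siC, from 89, 62 and 74 reads. The siI3 mean of 0.576 ± 0.0533 FPM was 6.40% of the siC mean of 9.01 ± 2.02 (log2 -2.65, SE 0.43, limma adjusted p = 0.00347). The summed reads, 12 in siI3 and 225 in siC, gave 6.53% after depth scaling, with a 95% exact interval of 3.33% to 11.6% for counting error only. The correction left -2.28 (0.00521), and the call held in all 6 fits without a library (limma adjusted p 0.00405 to 0.0314). With siC replicate 2 as the lone control the log2 difference was -2.29.

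VCAM1 in siI2 was spread widely, with 2.13, 7.17 and 0.970 FPM, from 10, 39 and 4 reads. Replicate 2 lay inside the siC range and the others below it (log2 -1.42, limma adjusted p = 0.0908). In siI1 VCAM1 had 5.12, 12.95 and 7.69 FPM, on both sides of siC (log2 -0.12, limma adjusted p = 0.879).

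ICAM1, the other adhesion ligand, had 8.07, 10.1 and 7.18 FPM in siI1, 10.6, 8.27 and 8.97 in siI2 and 4.49, 5.97 and 6.20 in siI3, against 7.30, 9.81 and 9.07 FPM in siC. The siI3 libraries all lay below siC, with a mean of 5.55 ± 0.929 FPM beside 8.73 ± 1.29, but the log2 difference of -0.57 did not pass (limma adjusted p = 0.132; -0.79 and 0.0518 after the correction). Differences in siI1 and siI2 were -0.05 and 0.08. Antisense transcripts AC011511.5 and AC011511.2 share 815 and 61 of its exon bases, and neither averaged above 0.276 FPM in any group.

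Groups that did not overlap with siC are a wider class than the calls. There were 4 such genes of 9 in siI1, where 32.8% of all genes did not overlap, 3 of 9 in siI2 (20.1%) and 4 of 9 in siI3 (29.3%).

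Differences called neither before nor after the correction, and not given corrected above, had these corrected log2 values. In siI1 they were -0.24 for NT5E, 0.49 for VCAM1 and -0.32 for ICAM1. In siI2 they were 1.17 for VSIR, 0.34 for CD70, -0.43 for CD274, 0.05 for CD276, -0.04 for PVR, -0.88 for VCAM1 and -0.09 for ICAM1. In siI3 they were -0.45 for VSIR, -0.15 for CD274, -0.23 for CD276 and 0.16 for NT5E.

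**Figure D3:**
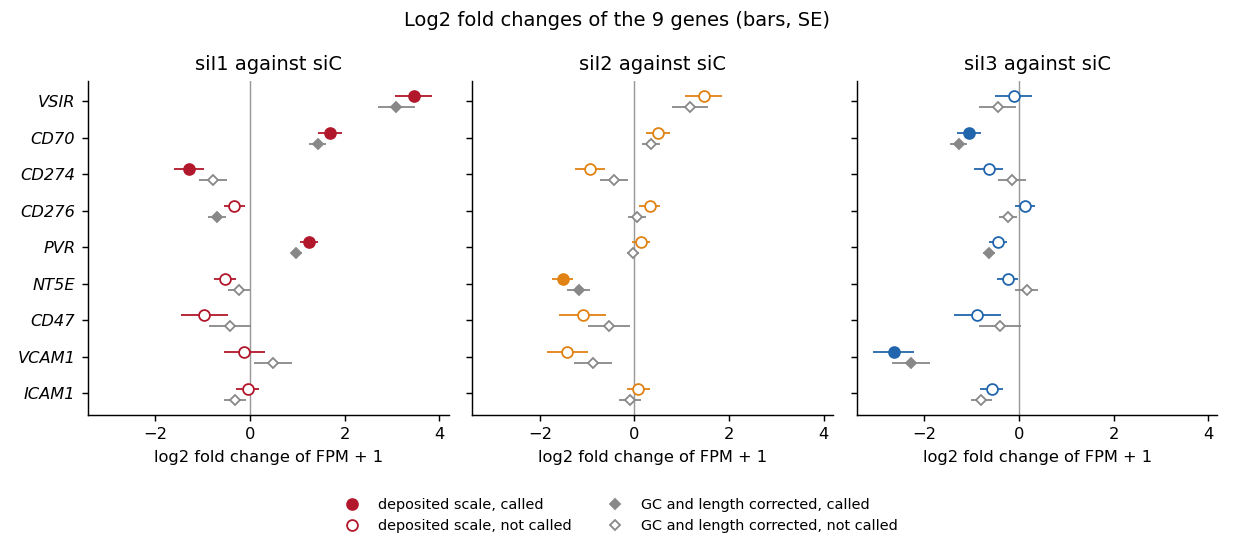
Log2 fold changes of FPM + 1 with SE for the 9 genes in each knockdown against siC, as circles on the deposited scale and grey diamonds after the GC content and length correction; filled symbols passed an adjusted p of 0.05. VSIR, CD70 and PVR in siI1, NT5E in siI2 and CD70 and VCAM1 in siI3 are filled on both scales, CD274 in siI1 on the deposited scale alone, and CD276 in siI1 and PVR in siI3 after the correction alone.

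The knockdowns were also compared directly, which leaves the siC libraries out of the difference. In siI1 against siI2, 4 of 9 genes passed, all higher in siI1, where 2.40% of all genes passed and 1.63% were higher. VSIR differed by 2.00 (SE 0.39, limma adjusted p = 0.0104), CD70 by 1.20 (0.0170), PVR by 1.12 (0.00410) and NT5E by 0.98 (0.0303) on the log2 scale. After the GC and length correction 5 of 9 passed, where 4.89% of all genes did: the same 4, and CD276, which was lower in siI1 (log2 -0.75, limma adjusted p = 0.0317). PVR was called in all 6 fits that left out a library. VSIR lost its call without siI1 replicate 1 (0.0768) or 3 (0.0585), CD70 without siI1 replicate 1 (0.109), siI1 replicate 3 (0.101) or siI2 replicate 2 (0.0707), and NT5E without any library but siI2 replicate 3 (up to 0.172).

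In siI1 against siI3, 4 of 9 genes passed, all higher in siI1, where 7.05% of all genes passed and 4.57% were higher. The log2 differences were 3.57 for VSIR, 2.75 for CD70, 1.68 for PVR and 2.52 for VCAM1 (SE 0.39, 0.25, 0.19 and 0.43). The limma adjusted p-values were 2.56e-05, 4.26e-06, 3.42e-05 and 0.00134, and each of the 4 was called in all 6 fits that left out a library. After the correction the same 4 passed, where 11.7% of all genes did. VCAM1 averaged 8.59 ± 3.99 FPM in siI1 and 0.576 ± 0.0533 in siI3.

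In siI2 against siI3, 3 of 9 genes passed, where 2.00% of all genes did, 1.26% upward and 0.740% downward. CD70 was higher in siI2 by 1.56 (SE 0.25, limma adjusted p = 0.00300) and VSIR by 1.57 (0.0475), and NT5E was lower in siI2 with a log2 difference of -1.28 (0.00646). After the correction 4 of 9 passed, where 3.96% of all genes did: the same 3, and PVR, higher in siI2 by 0.61 (limma adjusted p = 0.0115). The VSIR call was lost in 5 of 6 fits that left out a library (limma adjusted p up to 0.198) and that of NT5E without siI3 replicate 1 (0.0510). All-gene fold changes were nearly unrelated to GC content in the direct comparisons, with Spearman rho of 0.09, 0.03 and -0.05 across 13361 genes, beside 0.60, 0.60 and 0.55 against siC.

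Per kilobase of exon, PVR and NT5E were the most abundant in siC, at 36.5 ± 4.84 and 35.2 ± 9.37 FPM per kb, a difference within their spread. CD70 followed with 12.9 ± 3.49 and CD276 with 5.63 ± 1.14. ICAM1 (2.36 ± 0.348), CD274 (1.79 ± 0.557), CD47 (1.51 ± 0.710) and VCAM1 (1.49 ± 0.333) lay within overlapping spreads of their neighbours, and VSIR was lowest at 0.266 ± 0.0775. The order was different in siI1, where PVR had 86.6 ± 1.66, CD70 43.1 ± 8.81, NT5E 23.9 ± 3.796 and VSIR 4.99 ± 1.62 FPM per kb, so that VSIR stood beside CD276 (4.40 ± 0.667). In siI2, CD70 (18.3 ± 3.34) and NT5E (11.96 ± 1.85) stood in the reverse of their siC order. In siI3, VCAM1 was lowest at 0.0952 ± 0.00882 FPM per kb, beneath VSIR at 0.234 ± 0.0929.

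**Figure D4:**
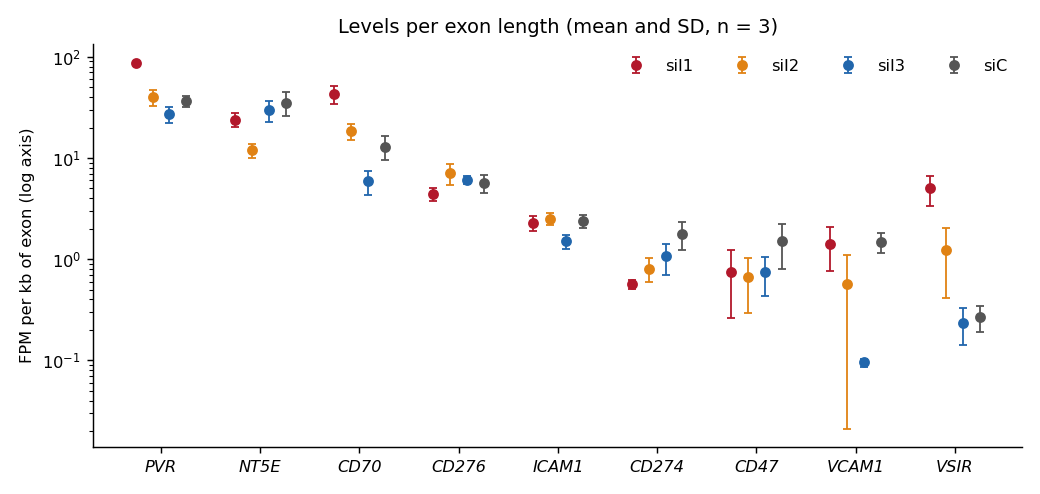
Level of each gene in FPM per kb of exon (log axis), ordered by its siC level, with points and bars as mean and SD of 3 libraries for siI1, siI2, siI3 and siC. VSIR in siI1 at 4.99 lies far above its other groups and VCAM1 in siI3 at 0.0952 far below its own.

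Partners and regulators of these 9 genes were read from 10 lists that were also drawn up with earlier results of these data known. The lists held 90 tested genes, and in siI1 9 of them rose and 2 fell, in siI2 1 rose and in siI3 11 fell, where 8.18%, 1.51% and 10.6% of all genes were called. After the GC and length correction 12 rose and 3 fell in siI1, 2 rose in siI2, and 1 rose and 11 fell in siI3, where 7.01%, 1.44% and 6.80% of all genes were called. The median log2 fold change of the 90 was 0.09, -0.07 and -0.21, beside -0.05, -0.09 and -0.05 for all genes.

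THBS1, a secreted ligand of CD47, was called in all 3 knockdowns, and in all 6 fits without a library each time. It averaged 337.3 ± 24.3 FPM in siI1, 310.0 ± 23.3 in siI2 and 54.02 ± 5.60 in siI3, beside 142.4 ± 2.61 in siC. It rose by 1.24 in siI1 (SE 0.16, limma adjusted p = 0.000400) and 1.11 in siI2 (0.00398) and fell in siI3 with a log2 change of -1.39 (0.000275). LRP1, a phagocytosis receptor, rose in siI1 (log2 0.82). The CD47 receptor SIRPA was not called in siI1, siI2 or siI3 (log2 0.35, 0.61 and -0.07).

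Of 17 listed receptors that recognise the 9 proteins, 5 averaged at least 1 FPM over all libraries. Among them ITGB2, the beta chain of the ICAM1-binding integrin LFA-1, rose in siI1 to 96.8 ± 7.43 FPM, against 35.1 ± 2.27 in siC (log2 1.44, limma adjusted p = 0.000447). ITGAL, the alpha chain of LFA-1, averaged 0.324 FPM in siI1, 1.07 in siI2, 1.02 in siI3 and 0.525 in siC. In siI1 the alpha chains ITGAM and ITGAX averaged 0.214 and 0.478 FPM. All 3 alpha chains were under the filter and not tested. SPN (CD43), a leukocyte sialoprotein, had 14.6 ± 3.85 FPM in siI1 and 5.06 ± 1.98 in siC (log2 1.39, limma adjusted p = 0.0135). SPN fell in siI3 to 1.55 ± 0.366 FPM (log2 -1.20, limma adjusted p = 0.0274), a call lost without siC replicate 3, siI3 replicate 1 or siI3 replicate 2. ITGB2 was called in all 6 fits that left out a library, and SPN was not without siC replicate 1 or siI1 replicate 1 in siI1. The leukocyte markers are given above, CD14 and CSF1R included, and their part in these values was not tested.

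Of 14 tested regulators of CD274, 2 rose in siI1, 0 were called in siI2 and 1 fell in siI3. The shares of all genes called there were 8.18%, 1.51% and 10.6%. The interferon-response factor IRF1 rose in siI1, with 60.1 ± 8.18 FPM beside 26.8 ± 8.68 in siC (log2 1.17, limma adjusted p = 0.00809), and STAT3 rose by 0.82 on the log2 scale (0.0185), while CD274 was lower there. JAK1, a kinase of interferon receptors, fell in siI3 to 35.1 ± 5.49 FPM, against 90.2 ± 10.96 in siC (log2 -1.34, limma adjusted p = 0.00105, called in all 6 fits without a library). In siI1 JAK1 was called up after the GC and length correction alone (corrected log2 0.79, limma adjusted p = 0.00266). The IRF1 call needed siC replicates 1 and 3 and siI1 replicate 1, and that of STAT3 was kept in 1 of 6 fits, the one without siC replicate 2. Of 15 tested NF-kB subunits, inhibitors and upstream receptors, 0 were called on the deposited scale in siI1, siI2 or siI3, beside the all-gene shares above, and 1 was after the correction, the interleukin-1 receptor IL1R1 in siI1 (corrected log2 1.30, limma adjusted p = 0.0239). At an unadjusted limma p below 0.05 there were 6 of the 15 in siI1, 1 in siI2 and 3 in siI3. Of all 13782 genes tested, 3799, 3147 and 4130 were below it. edgeR called 1, 0 and 0 of the 15, beside 1388, 185 and 1379 of all genes.

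The remaining calls were spread over other surface families. In siI1, the T cell costimulator TNFSF9 (log2 1.32), CD99L2 (0.85) and CD34 (1.25) rose, and the tetraspanin CD9 (-1.21) and the NK receptor ligand NCR3LG1 (-1.40) fell. In siI3, the butyrophilins BTN3A1 (-1.20) and BTN3A2 (-0.88), the ectonucleotidase ENTPD3 (-1.68), the adhesion proteins JAM3 (-1.30) and CD44 (-1.16), CD9 (-1.47) and the NK receptor ligands MICB (-1.42) and RAET1E (-1.58) fell. Of these, CD34 had means of 2.17 FPM in siI1 and 0.330 in siC, ENTPD3 0.106 in siI3 and 2.56 in siC, and RAET1E 0.547 in siI3 and 3.51 in siC, near the value of 3 reads in the lower group. MICB, the stress-induced ligand of NKG2D, averaged 8.13 ± 1.26 FPM in siI3 and 23.7 ± 5.00 in siC (limma adjusted p = 0.00177). The deposited names of the rows read for MICB and PTPRC are MICB.7 and PTPRC.1, and any other rows of these genes were not read. Only JAM3 and MICB of these were called in all 6 fits that left out a library, and LRP1 in siI1 and BTN3A2 and CD44 in siI3 lost their calls under the correction.

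**Figure D5:**
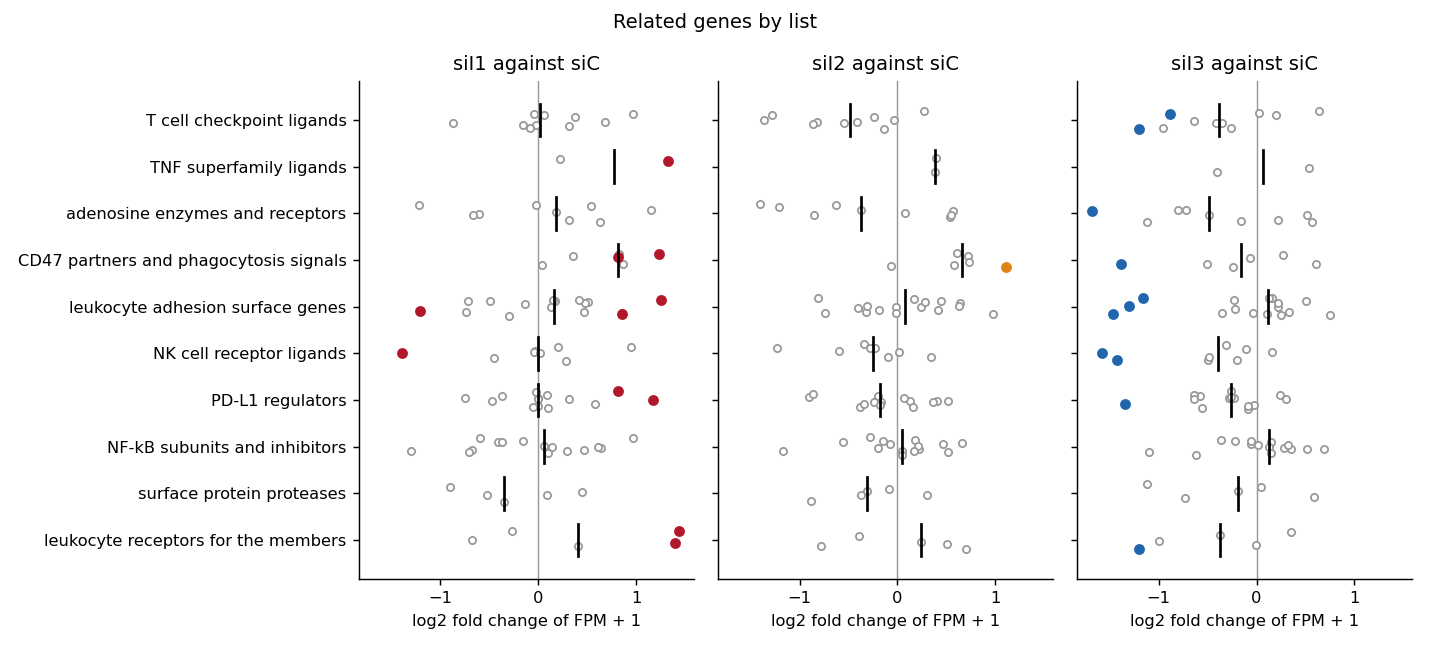
Log2 fold change of FPM + 1 against siC for the 90 tested genes of 10 related lists, in a panel for each knockdown; filled points passed an adjusted p of 0.05 and black bars are list medians. Called genes lie on both sides of 0 in siI1, only THBS1 is filled in siI2, and the 11 filled points in siI3 are all below 0.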

How the data were processed

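Per the labels' protocols, total RNA of ES-2 cells was depleted of ribosomal RNA, fragmented, primed with random hexamers and sequenced in pairs. Per the submitters' processing notes, cutadapt 1.6, TopHat2 2.0.13, hg19, featureCounts 1.4.6 and edgeR 3.12 were used; strand setting and annotation are not given. The treatment label mentions only parental cells, and titles and siRNA labels gave the groups. Per the file headers, the deposited values are FPM, a depth-normalized signal, with a log2 fold change and an FDR, an adjusted p-value, for each knockdown; these log2 and FDR columns are the authors' and are quoted as theirs. All values were whole multiples of 1 read (100% within a tolerance of 0.01), so reads were recovered.

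The 9 genes, the related lists, the markers and the tests were chosen with earlier results of these data known. limma 3.58.1 in R 4.3.3 with a mean-variance trend was run on log2(FPM + 1) over all 12 libraries with 1 coefficient per group (8 residual degrees of freedom). 92 spike-ins were left out, filterByExpr (minimum count 10) on recovered reads left 13782 genes, and Benjamini-Hochberg adjustment ran over all of them, with calls below 0.05. The script was tested on simulated data. GC content and length came from the longest GENCODE 29 transcript, matched by identifier for 52338 features, and the correction was a loess surface with span 0.5 per library. Named genes were the 9, the IGF2BPs, genes overlapping the 9, up to 4 called genes per list and knockdown by size of change, and 3 nearest patterns per called member, of which 1 is not reported here; SIRPA, IL1R1 and single markers were named beyond this rule, after their values were seen. Alternatives were edgeR 4.0.16 on recovered reads, pseudocounts of 0.25 and 4, TMM and RLE scaling, no filter, the replicate block, a fit of the 6 compared libraries, single libraries left out, and the correction. Intervals and floors cover counting error only, since reads carried no molecular identifiers.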

Additional observations from a re-analysis of the deposited data

How the results depend on the processing

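Called fold changes of the 9 genes kept their direction under every alternative run. Deviations of libraries with the same replicate number correlated positively for all 3 numbers in siI1 against siI2 (r of 0.18 to 0.45). There the replicate block left 4 genes called. All 3 were also positive in siI3 against siC (r of 0.01 to 0.27), and signs were mixed or negative in the other comparisons (-0.45 to 0.18). The block left 4, 1 and 2 of the 9 called against siC, 4 in siI1 against siI3 and 2 in siI2 against siI3. With siC replicate 2 as the lone control, an alternative chosen after seeing the data, the 9 genes gave 1, 0 and 0 calls and the related genes 1, 0 and 2 in siI1, siI2 and siI3. For siI1, edgeR called 17 related genes, beside 1388 of all 13782, and the 6 libraries alone called 22 related genes. For siI2, edgeR called 2 of the 9 genes, beside 185 of all 13782. There edgeR, a pseudocount of 4, TMM, RLE and the GC and length correction each called 2 related genes. With no filter on low values 1 gene was called in siI3. Leaving out 1 library gave 3 to 5, 1 to 4 and 1 to 2 calls among the 9 in siI1, siI2 and siI3, 1 to 4 in siI1 against siI2, 4 to 4 in siI1 against siI3 and 1 to 4 in siI2 against siI3, and 2 to 25, 1 to 12 and 5 to 25 related genes against siC. Beyond edgeR, the GC and length correction and the lone siC replicate 2, all-gene shares were not tallied for these alternatives. Their counts cannot be told apart from a change over all genes. The values that changed sign belong to differences that were not called. The GC and length correction, with or without the replicate block, gave VCAM1 0.49 in siI1, PVR -0.0357 and ICAM1 -0.0869 in siI2, and CD276 -0.23 and NT5E 0.16 in siI3. The lone siC replicate 2 gave VCAM1 0.24 in siI1, PVR -0.0823 and ICAM1 -0.0774 in siI2, and CD276 -0.14 and NT5E 0.13 in siI3. Over fits without 1 library, siI1 gave VCAM1 -0.43 to 0.16 and ICAM1 -0.17 to 0.0520, siI2 gave PVR -0.0152 to 0.23 and ICAM1 -0.0260 to 0.16, and siI3 gave VSIR -0.26 to 0.0587 and CD276 -0.0275 to 0.26. The cause of these changes was not tested. All libraries held 15 or fewer reads for VSIR in siC and siI3, CD274 in siI1 and VCAM1 in siI3, and some did for VSIR, CD274, CD47 and VCAM1 in siI2 and CD47 in siI1.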

Other observations

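The endothelial cadherin CDH5, included as a marker of another cell type, rose in all 3 knockdowns, with means of 140.4 ± 8.05 FPM in siI1, 114.2 ± 10.2 in siI2 and 101.3 ± 7.56 in siI3, beside 60.5 ± 9.77 in siC (SD, n = 3 each; limma adjusted p = 0.000638, 0.0154 and 0.0196). Of the other endothelial markers, VWF had means of up to 1.83 FPM, KDR of up to 0.948 and TEK of up to 0.207. The CDH5 call in siI2 needed siC replicates 1 and 3 and siI2 replicate 1, and that in siI3 was kept in 2 of 6 fits, those without siC replicate 2 or siI3 replicate 3. The keratin KRT8 rose in siI1 to 147.2 ± 15.4 FPM, against 44.0 ± 8.17 in siC (limma adjusted p = 0.000173), and vimentin (VIM) fell in siI3 to 338.4 ± 153.4 FPM, against 914.1 ± 75.6 in siC (0.0264), a call kept in the same 2 of 6 fits. VIM was also lower in siI1, at 484.4 ± 208.6 FPM (log2 -0.99), and in siI2, at 352.6 ± 183.0 FPM (log2 -1.53). It was not called in either (limma adjusted p = 0.113 and 0.0563).

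The genes whose log2(FPM + 1) followed each member most closely over the 12 libraries were found by Pearson r among 9318 other genes averaging 5 FPM or more, as a description. VSIR was followed by ADAM19 (0.96), SPTAN1 (0.96) and EPHX1 (0.95), and CD70 by the integrin subunit ITGB5 (0.98), NIPSNAP1 (0.98) and NARF (0.97). PVR was followed by the spectrin SPTBN1 and the growth factor PDGFB (0.98 each), and PDGFB averaged 29.9 FPM in siI1 and 9.47 in siC. NT5E was followed by DYNC1LI2 (0.93), SIKE1 (0.90) and FAM199X (0.90), VCAM1 by the annexin ANXA5 (0.97), IFT46 (0.96) and MYOF (0.96), and CD274, among 9319, by PFDN2 (0.94), SLC17A5 (0.90) and PPP2R3A (0.89). Libraries of a group and the GC trend of siC replicates 1 and 3 are shared by all these values.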
